A study of Mus musculus with 4 samples.

Results

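The 10 heat shock genes described here were Hspa1a, Hspa1b, Hspb1, Hsph1, Dnajb1, Hsp90aa1, Hsp90ab1, Hspa8, Hspd1 and Hspe1, 10 of the 27998 genes counted in single cells. They were chosen by their measured levels in these cells, several of them having stood out in earlier results at 3 days after RBPJ had been switched on. Their differences between the 3-day library and the others are therefore given as a description, with no test. From general knowledge, 6 of them (Hspa1a, Hspa1b, Hspb1, Hsph1, Dnajb1 and Hsp90aa1) are called inducible here and 4 (Hsp90ab1, Hspa8, Hspd1 and Hspe1) constitutive. In 3-day cells the 6 inducible genes together stood at 2032 CPM (counts per 1000000 counts), against 1022 CPM in uninduced cells, and the 4 constitutive genes at 6224 CPM, against 5277 CPM. At 6 days the inducible genes stood at 802 CPM, against 767 CPM in control cells, sums of which Hsp90aa1 made up 617 and 612 CPM.

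Heat shock proteins are chaperones that keep other proteins folded. When misfolded proteins accumulate, the transcription factor HSF1 is released from chaperones, forms trimers and binds heat shock elements, which are inverted repeats of the unit GAA in the promoters of inducible genes. Inducible genes are transcribed within minutes of heat or other stress on proteins, and some of them, such as Hspa1a, are low in resting cells while others, such as Hsp90aa1, have a basal level. Constitutive members such as Hspa8 and Hsp90ab1 serve protein folding in every growing cell.

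The cells, sorted from C57BL/6 mouse bone marrow, were LMPPs (lymphoid-primed multipotent progenitors), which can still give rise to lymphocytes and to myeloid cells, and they were captured in 10x Genomics droplets. RBPJ is the DNA-binding partner of activated Notch. One library each came from mice lacking RBPJ (uninduced), from such mice with RBPJ switched on by doxycycline for 3 days or for 6 days, and from control mice with RBPJ always present. Doxycycline was injected at 2 mg/ml and given in drinking water at 1 mg/ml, and the labels carry this text for every library. The number of mice behind a library and what drives the inducible RBPJ are not stated in the labels. The cell sets of the authors held 2769 uninduced, 1292 3-day, 2129 6-day and 2693 control cells, 8883 in all. Captured transcripts, each counted once by its unique molecular identifier (UMI), came to 20952799, 10647894, 17455692 and 23504158 in that order. A level is a gene's UMI sum in the cells of 1 library, in CPM, and brackets hold 95% intervals that cover counting error only. With 1 library per group, no difference has a replicate check, and group, capture, handling and sequencing run cannot be told apart. Rbpj itself stood at 11.2 CPM (9.83 to 12.7) in uninduced, 508 (495 to 522) in 3-day, 485 (474 to 495) in 6-day and 17.8 (16.1 to 19.6) in control cells. It was thus high in both libraries labelled induced, and in uninduced cells it was at 0.631-fold (0.535 to 0.742) of control cells. The 10 LMPP markers all had UMIs in each library and summed to between 2120 and 2383 CPM. Markers of mature neutrophils (10 of 10 detected in each library) summed to 3468 CPM in uninduced, 4127 in 3-day, 2906 in 6-day and 961 CPM in control cells, and those of red cells to 861, 293, 734 and 357 CPM, with 8 of 9 detected in 3-day and in control cells and all 9 in the others. Of the red cell sums, Car2 alone made up 288 CPM in uninduced, 261 in 3-day, 219 in 6-day and 240 CPM in control cells. The haemoglobin genes differed more than the sums. Hba-a1 stood at 174, 3.66, 167 and 32.5 CPM in the same order. At 3 days Hba-a1, Hbb-bs, Hba-a2 and Hbb-bt were at 0.0211, 0.0231, 0.0369 and 0.178-fold of uninduced cells. Megakaryocyte markers summed to 7.83 to 10.9 CPM in 3 libraries and to 140 CPM at 6 days. The part of such cells and their RNA in the differences between libraries was not tested, apart from the counts without marker-rich cells given at the end of the comparisons.

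The 3-day and 6-day libraries were not fully separate. Of the 1292 barcodes of 3-day cells, 1287 were not cells in the 6-day library, and all 1287 had UMIs there, with a median of 73 UMIs (5th to 95th percentile, 33 to 140.7). Together these barcodes held 100521 UMIs in the 6-day library, 0.947% of their 10612402 UMIs in the 3-day library. In every other pairing of a library with another library's cell barcodes the median was 0 to 2 UMIs, and 6-day cell barcodes had a median of 1 UMI in the 3-day library. The origin of these UMIs was not tested. The cell sets themselves shared 2 to 17 barcodes per pair of libraries, and 5 between 6-day and 3-day cells. The overlap enters the 6-day values for RNA outside cells, which are given with and without it. Without the cells whose barcodes are cells in another library, the counts of genes given below stayed as they were in all 6 comparisons.

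To show the letters that heat shock elements consist of, the promoter windows of Hspa1a, Hspa1b and Hspb1 (the genes with the largest 3-day folds) are printed with matches to a pair of GAA units in capitals. The windows hold the 250 bases before the start site, 5′ to 3′ on the gene's strand, from RefSeq on GRCm38.p6. The letters searched were GAANNTTC and TTCNNGAA, each of which reads the same on both strands, and for 3 units GAANNTTCNNGAA and TTCNNGAANNTTC, which are reverse complements of each other and overlap the shorter ones. The Hspa1a window lies at chr17:34972157-34972406 (minus strand), that of Hspa1b at chr17:34959239-34959488 (minus strand) and that of Hspb1 at chr5:135887669-135887918 (plus strand).
Hspa1a: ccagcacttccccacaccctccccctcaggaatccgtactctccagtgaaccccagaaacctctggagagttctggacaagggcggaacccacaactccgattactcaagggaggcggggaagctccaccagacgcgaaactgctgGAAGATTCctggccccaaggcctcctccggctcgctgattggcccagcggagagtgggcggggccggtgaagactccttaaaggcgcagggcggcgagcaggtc
Hspa1b: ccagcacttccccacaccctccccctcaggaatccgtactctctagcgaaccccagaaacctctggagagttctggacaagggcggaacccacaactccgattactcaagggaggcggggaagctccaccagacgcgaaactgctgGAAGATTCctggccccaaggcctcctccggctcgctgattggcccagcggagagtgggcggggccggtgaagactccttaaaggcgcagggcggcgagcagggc
Hspb1: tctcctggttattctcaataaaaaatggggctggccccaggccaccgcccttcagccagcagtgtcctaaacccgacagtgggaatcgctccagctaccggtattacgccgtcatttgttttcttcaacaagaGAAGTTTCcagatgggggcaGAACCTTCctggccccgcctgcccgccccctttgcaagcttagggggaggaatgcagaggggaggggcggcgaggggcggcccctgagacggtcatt

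The Hspa1a and Hspa1b windows were identical at 247 of 250 bases (98.8%), and each held 1 match, GAAGATTC, 104 bases before the start. The Hspb1 window held 2 matches, GAAGTTTC at 117 and GAACCTTC at 97 bases before the start. Hsph1 had 1, TTCTCGAA, 33 bases before its first start, and Dnajb1 had none. The constitutive pair Hspe1 and Hspd1, which lie head to head, shared the run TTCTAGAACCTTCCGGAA on the Hspe1 strand, with 3 overlapping 2-unit and 2 overlapping 3-unit matches, 89 bases before the Hspe1 start. For Hspd1 the run stood in the window of its second start, which lies inside the gene, and the window of its first start held no match. Of the 2 Dnajb1 windows, 1 lay inside the gene and the start of the other was not matched in the gene's transcripts. The absence of a match at Dnajb1 thus holds for these windows only. Windows were at hand for 7 of the 10 genes, and Hsp90aa1, Hsp90ab1 and Hspa8 were not among them. A 2-unit match stood in 12.8% of all 32851 promoter windows of this length and a 3-unit match in 0.466%. These matches are letters in a window. Among the constitutive genes they were found only in the run that Hspe1 and Hspd1 share.

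The inducible HSP70 genes Hspa1a and Hspa1b, which encode almost the same chaperone from neighbouring copies, showed the widest range of the HSP70 genes. Hspa1a (ENSMUSG00000091971; GRCm38 chromosome 17, 34969190 to 34972156, minus strand) stood at 56.5 CPM (53.3 to 59.8) in uninduced, 448 (435 to 461) in 3-day, 18.9 (16.9 to 21.1) in 6-day and 10.8 (9.56 to 12.3) in control cells. None of these 4 intervals overlapped, and 3-day cells were 7.93-fold (7.44 to 8.46) above uninduced and 41.3-fold (36.4 to 47.0) above control cells. Hspa1b (ENSMUSG00000090877; chromosome 17, 34956436 to 34959238, minus strand) stood at 8.54 (7.34 to 9.89), 57.2 (52.7 to 61.9), 3.49 (2.67 to 4.49) and 2.38 CPM (1.80 to 3.09) in the same order. The 3-day level was 6.69-fold (5.66 to 7.95) above uninduced cells. The 6-day and control intervals overlapped, at a fold of 1.47 (1.004 to 2.15). The order uninduced below 3-day and above 6-day and control was thus the same for both copies. The transcript ends of the pair differ: 0% of the 31-base words in the last 500 bases of Hspa1a and 2.15% of those of Hspa1b occur in another gene, so the ends of the pair share no such word. How the authors counted reads in the near-identical coding parts is not known here, so the split between the copies is uncertain.

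Hspb1, the small heat shock protein that holds unfolding proteins in solution, had few UMIs outside the 3-day library. It had 20 UMIs in uninduced, 146 in 3-day, 1 in 6-day and 3 in control cells, which is 0.955 (0.583 to 1.47), 13.7 (11.6 to 16.1), 0.0573 (0.00145 to 0.319) and 0.128 CPM (0.0263 to 0.373). Its 3-day level was 14.4-fold (8.97 to 24.2) above uninduced cells. The UMIs sat in few cells, with 42.5% of the 146 in the 10 highest of the 1292 cells and at most 10 in 1 cell. Hspb1 lies on chromosome 5 at 135887919 to 135889563 (plus strand), and 45.0% of its transcript-end words also occur in the pseudogene Hsp25-ps1, so its counts are uncertain.

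The remaining inducible genes encode helpers of HSP70 and the inducible HSP90. Hsph1, an HSP110 that exchanges the nucleotide of HSP70, stood at 12.7 (11.3 to 14.4), 36.1 (32.5 to 39.9), 14.8 (13.0 to 16.7) and 15.1 CPM (13.5 to 16.7) in uninduced, 3-day, 6-day and control cells, and the 3 intervals other than the 3-day one overlapped. Dnajb1, the HSP40 that delivers clients to HSP70, stood at 219 (212 to 225), 386 (374 to 398), 147 (141 to 153) and 126 CPM (122 to 131), with no 2 intervals overlapping. Hsp90aa1, the inducible cytosolic HSP90, stood at 724 (713 to 736), 1091 (1072 to 1111), 617 (606 to 629) and 612 CPM (602 to 622), where only the 6-day and control intervals overlapped. Over uninduced cells the 3-day folds were 2.83 (2.41 to 3.32) for Hsph1, 1.76 (1.69 to 1.84) for Dnajb1 and 1.51 (1.47 to 1.54) for Hsp90aa1. These 3 folds were smaller than those of Hspa1a, Hspa1b and Hspb1. Hsph1 lies on chromosome 5 at 149614287 to 149636376 (minus strand), Dnajb1 on chromosome 8 at 83608193 to 83612653 (plus strand) and Hsp90aa1 on chromosome 12 at 110690605 to 110702728 (minus strand). Of the transcript-end words of Hsp90aa1, 28.3% occur in other genes, and none of those of Hsph1 and Dnajb1 do.

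The constitutive members also stood higher at 3 days, each by less than any inducible gene. Hspa8, the HSP70 of unstressed cells, stood at 2127 (2108 to 2147), 2563 (2533 to 2594), 2006 (1985 to 2027) and 2060 CPM (2042 to 2079) in uninduced, 3-day, 6-day and control cells. Hsp90ab1, the constitutive HSP90, stood at 2335 (2315 to 2356), 2655 (2624 to 2686), 2186 (2164 to 2208) and 2315 CPM (2295 to 2334). Hspd1, the mitochondrial HSP60, stood at 246 (239 to 253), 333 (322 to 344), 235 (228 to 242) and 258 CPM (252 to 265). Hspe1, its HSP10 lid, stood at 568 (558 to 578), 673 (657 to 688), 570 (559 to 581) and 522 CPM (513 to 532). The 3-day library was the highest for each of the 4, with folds over uninduced cells of 1.14 (1.12 to 1.15) for Hsp90ab1, 1.18 (1.15 to 1.22) for Hspe1, 1.20 (1.19 to 1.22) for Hspa8 and 1.35 (1.30 to 1.41) for Hspd1. Hspd1 and Hspe1 lie side by side on chromosome 1, at 55077835 to 55088243 (minus strand) and 55088132 to 55091307 (plus strand), Hspa8 on chromosome 9 at 40800984 to 40810087 (plus strand) and Hsp90ab1 on chromosome 17 at 45567775 to 45573271 (minus strand). Pseudogenes copy these genes, and 73.4% of the end words of Hspa8, 68.5% of Hspe1, 40.8% of Hspd1 and 9.67% of Hsp90ab1 are shared, so their absolute counts are uncertain.

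**Figure D1:**
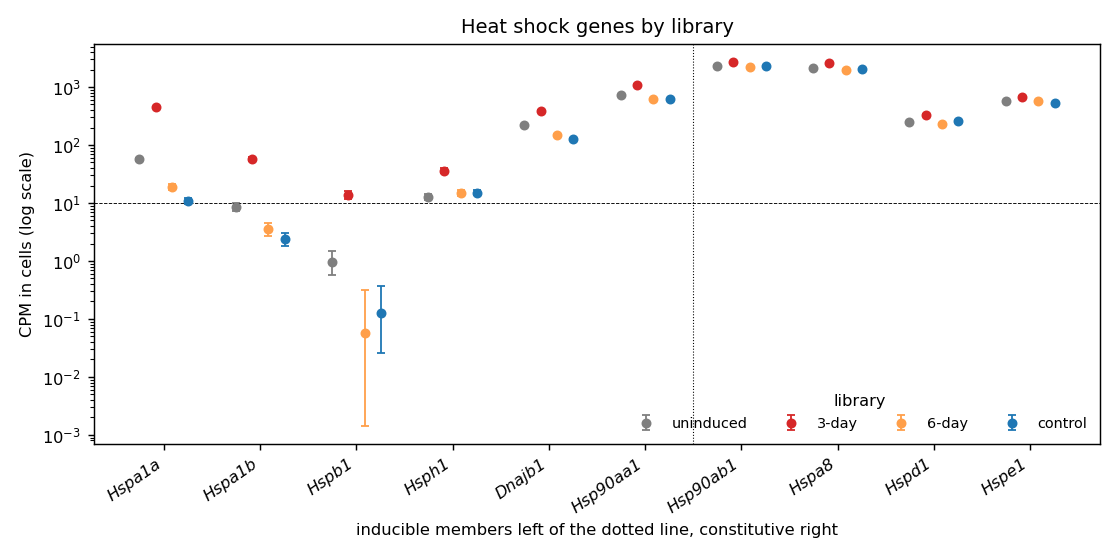
Level of each gene in CPM (log axis) in uninduced, 3-day, 6-day and control cells, 1 library each; bars are 95% Poisson intervals, the dashed line marks 10 CPM and the dotted line parts inducible from constitutive genes. The 3-day point is the highest for all 10 genes, and the spread between libraries is wide for Hspa1a, Hspa1b and Hspb1 and narrow for the 4 constitutive genes.

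A gene was counted as apart when it reached 10 CPM in either library and differed by at least 1.5-fold on CPM + 1. In 3-day against uninduced cells 6 of 6 inducible and 0 of 4 constitutive genes were higher and none was lower, where 0.466% of 7082 genes were higher. The median log2 ratio was 2.02 over the inducible genes, 0.26 over the constitutive genes and -0.01 over all 7082. This comparison chose the genes, so the count supports nothing. It was 4 without the 10 cells per library with the most UMIs of each gene, as Hsp90aa1 (log2 ratio 0.58) then lay just under 1.5-fold and Hspb1 (2.85) under 10 CPM, and 5 in thinned cells (Hsp90aa1 0.57). In 6-day against 3-day cells 6 inducible and 0 constitutive genes were lower, where 0.674% of 7118 genes were lower, with medians of -2.54, -0.32 and -0.02. In 3-day against control cells 6 inducible and 0 constitutive genes were higher, where 0.91% of 7255 genes were higher, with medians of 2.65, 0.34 and -0.08. Without the top cells the count was 5 in each of these comparisons with 6-day and control cells, again with Hspb1 under 10 CPM. All 3 of these comparisons share the 3-day library, for whose levels several of the genes were chosen. In each of them Hspa1b and Hspb1 passed the 10 CPM minimum through the 3-day library alone. The counts of all 3 comparisons are therefore a description and support nothing.

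The comparisons without the 3-day library divided the inducible genes. In uninduced against control cells Hspa1a (5.21-fold, 4.55 to 5.99) and Dnajb1 (1.73-fold, 1.65 to 1.81) were higher, 2 of the 10 genes, where 0.691% of 7235 genes were higher. Hspa1b and Hspb1 stayed under the 10 CPM minimum there, at folds of 3.59 (2.64 to 4.93) and 7.48 (2.22 to 39.3) from 179 against 56 and 20 against 3 UMIs. Hsph1 went the other way, at 0.846-fold (0.719 to 0.995), and Hsp90aa1 was at 1.18-fold (1.16 to 1.21). The constitutive folds were 0.953 for Hspd1, 1.01 for Hsp90ab1, 1.03 for Hspa8 and 1.09 for Hspe1.

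In 6-day against uninduced cells Hspa1a alone of the 10 counted as lower, at 0.335-fold (0.295 to 0.378), where 0.31% of 7097 genes were lower, and 8 of the 10 passed the minimum. Dnajb1 was just inside the threshold at 0.673-fold (0.641 to 0.706), and Hspa1b, under the minimum, was at 0.409-fold (0.301 to 0.550). In 6-day against control cells Hspa1a alone counted as higher, at 1.74-fold (1.48 to 2.06), where 0.608% of 7235 genes were higher. That call ended when cells were thinned to one depth, which gave a log2 ratio of 0.46, against 0.75 without thinning. The other 7 genes past the minimum lay between 0.909-fold (Hspd1) and 1.16-fold (Dnajb1) of control cells. The median log2 ratio over all genes was -0.10 in this comparison. Without the cells rich in markers of other cell types, the numbers of genes counted were the same in all 6 comparisons.

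**Figure D2:**
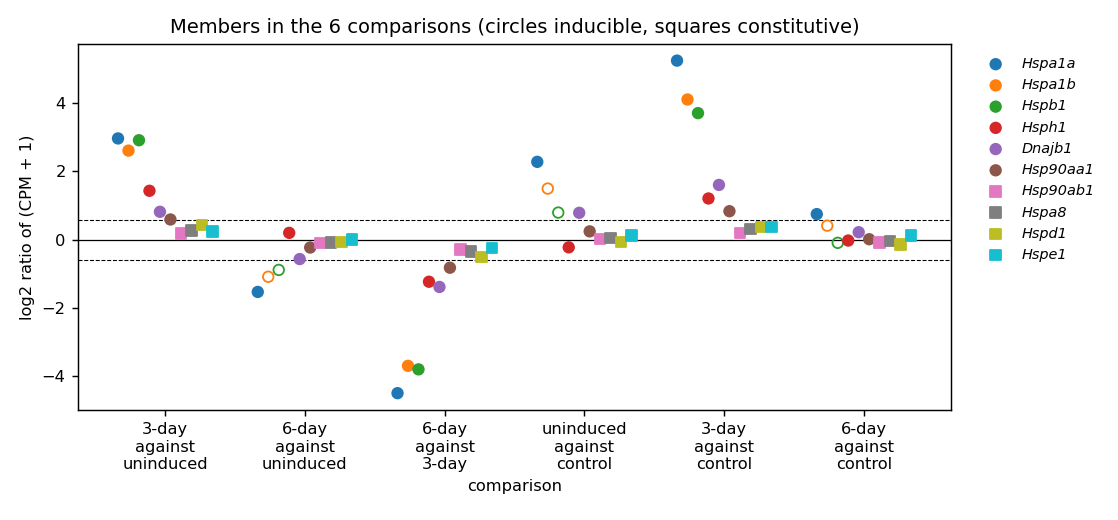
Log2 ratio of (CPM + 1) of each gene (vertical axis) in the 6 comparisons; circles are inducible and squares constitutive genes, open symbols lie under 10 CPM in both libraries and dashed lines mark 1.5-fold. No square passes the dashed lines, and all 6 circles do so in each of the 3 comparisons with the 3-day library.

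The UMIs of the inducible genes were 0.194 (0.191 to 0.196) of those of the constitutive genes in uninduced, 0.327 (0.322 to 0.332) in 3-day, 0.160 (0.158 to 0.163) in 6-day and 0.149 (0.146 to 0.151) in control cells. Without Hsp90aa1 these ratios were 0.0564, 0.151, 0.0369 and 0.0300. Within single cells the inducible genes had a median of 8.87, 18.0, 6.74 and 6.56 UMIs per 10000 in that order. Their 5th to 95th percentiles were 2.04 to 22.8, 5.45 to 45.9, 1.41 to 16.3 and 1.30 to 15.4 UMIs per 10000. The constitutive genes had medians of 50.8, 61.7, 47.3 and 49.1 UMIs per 10000. The lower quartile of 3-day cells for the inducible genes, 12.2, lay just under the upper quartile of uninduced cells, 13.0, and above those of 6-day (9.85) and control cells (9.49). The middle parts of the 3-day and uninduced distributions thus overlapped slightly, and those of 3-day and 6-day or control cells did not.

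To compare cells at one depth, each was thinned to 4700 UMIs, which kept 2093 uninduced, 1088 3-day, 1755 6-day and 2342 control cells. A Hspa1a UMI was then found in 13.0% (11.6 to 14.6), 61.9% (59.0 to 64.8), 4.84% (3.89 to 5.95) and 3.59% (2.87 to 4.42) of cells, with Clopper-Pearson intervals. Without thinning the shares were 15.9%, 69.2%, 6.39% and 4.46%. Of the thinned 3-day cells, 38.1% had 0, 19.1% had 1, 13.1% had 2, 17.6% had 3 to 5, 9.65% had 6 to 10 and 2.48% had over 10 Hspa1a UMIs, with a highest value of 41. In uninduced cells 0.573% had 6 to 10 and 0.0478% (1 cell) over 10.

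Hspa1a was spread unevenly among the 3-day cells. Its variance over cells was 4.49 times its mean at 3 days, where Poisson counting alone gives 1. At the 3-day mean of 2.18 UMIs per cell, Poisson counting would put a UMI in 88.7% of cells, against the 61.9% seen. The 129 unthinned 3-day cells with the most Hspa1a UMIs held 41.9% of the Hspa1a UMIs. The measure nears 1 for any gene with a low mean, so it is not compared between genes or libraries. Hspb1 had a UMI in 3.68% (2.64 to 4.97) of thinned 3-day cells.

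**Figure D3:**
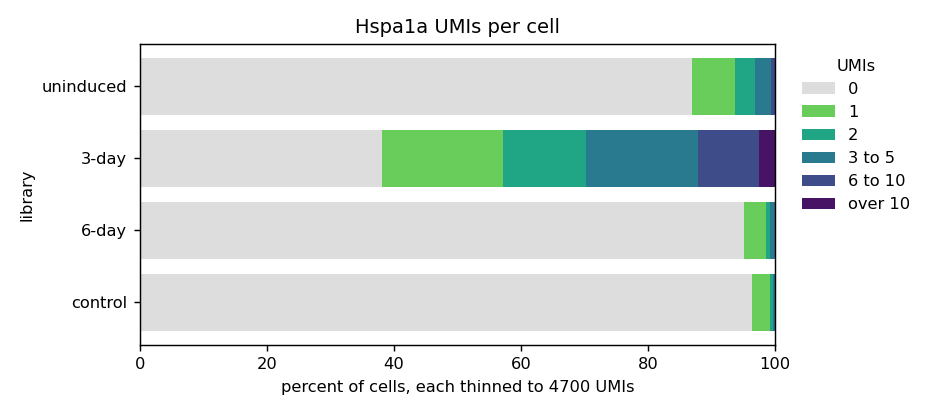
Percent of cells (horizontal axis) by Hspa1a UMIs per cell in the 4 libraries, each cell thinned to 4700 UMIs. Grey (0 UMIs) covers 38.1% of 3-day cells and 87.0% to 96.4% of cells in the other libraries, and classes of 3 or more UMIs are broad at 3 days alone.

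Inducible genes were also counted together in the same cells. How many genes per cell the share of each gene alone would give was not computed. The counts per cell thus also move with how often each gene was found. Of the 5 inducible genes other than Hsp90aa1, 12.5% of thinned 3-day cells had a UMI of none, 30.2% of 1, 34.9% of 2, 18.4% of 3, 3.68% of 4 and 0.276% (3 cells) of all 5. In uninduced cells 38.5% had none, 10.2% had 2, 2.01% had 3 and 1 cell had 4, and in 6-day and control cells 49.5% and 52.0% had none. At 3 days Hspa1b was found in 28.3% (24.96 to 31.9) of the 674 cells with a Hspa1a UMI and in 13.3% (10.2 to 16.9) of the 414 without. Dnajb1 averaged 2.21 UMIs in the first and 1.31 in the second, a ratio of 1.69 (1.53 to 1.87), and Hsp90aa1 had a ratio of 1.27 (1.20 to 1.35). Among constitutive genes the ratios were 1.13 (1.09 to 1.17) for Hspa8, 1.08 (1.04 to 1.12) for Hsp90ab1, 1.07 (0.997 to 1.15) for Hspe1 and 0.986 (0.892 to 1.09) for Hspd1. The Dnajb1 ratio was 1.54 (1.38 to 1.72) in uninduced, 1.60 (1.27 to 1.99) in 6-day and 1.42 (1.10 to 1.81) in control cells, so the pairing was seen in every library. These intervals treat cells as the source of counting error and not as replicates.

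Among the 2376 genes with at least 50 CPM at 3 days, the 10 that followed Hspa1a most closely over the 1292 cells, by Pearson's r of log2(UMIs per 10000 + 1), included Hsp90aa1 (r = 0.259), Dnajb1 (0.245), Jun (0.243), Hspa1b (0.217), Hspa8 (0.208), Ubb (0.205), Dntt (0.188), H2afy (0.169) and Hsp90ab1 (0.168). Heat shock genes described here are among them, and Ubb encodes polyubiquitin. Hspa1b passed 50 CPM in the 3-day library alone, so it could be ranked only there. The values are weak, and all cells share 1 library and their own depths. Hspd1 stood at 0.001. The 10 genes that most closely followed Hsp90ab1 were Rpl14 (0.554) and others of the ribosome and translation such as Eef1a1 (0.541) and Rps2 (0.538). The pairing with Hspa1a was not particular to 3 days. In uninduced cells Dnajb1 (0.153), Hspa8 (0.151), Hsp90ab1 (0.146) and Hsp90aa1 (0.137) ranked 1, 2, 3 and 5 of 2394 genes. Hspa1b, unranked there, had an r of 0.251. Dnajb1 ranked 2 of 2325 genes in 6-day and 9 of 2482 in control cells.

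Before depth was matched, Hspa1a and Dnajb1 stood higher within each library in cells rich in immediate-early genes, such as Fos and Jun, which switch on within minutes of a stimulus. When cells were parted into terciles by their share of UMIs from 22 immediate-early genes, Hspa1a stood at 329 (312 to 347), 475 (453 to 497) and 599 CPM (570 to 630) from the lowest to the highest tercile of 3-day cells. The same terciles gave 32.9, 63.1 and 87.8 CPM in uninduced, 8.12, 19.8 and 34.7 in 6-day, and 5.66, 10.8 and 19.2 in control cells. Dnajb1 stood at 183, 366 and 738 CPM in 3-day cells and at 121, 210 and 399 CPM in uninduced cells. Hsp90ab1 differed far less, at 2540, 2701 and 2773 CPM in 3-day cells and 2361, 2365 and 2248 CPM in uninduced cells. The lowest 3-day tercile was still above the highest uninduced tercile for Hspa1a, and was not for Dnajb1.

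Depth moved with these terciles, since median UMIs per cell were 9583, 8414 and 5500 from the lowest to the highest at 3 days. Within the middle tercile of 3-day cells by total UMIs, where the medians were 7788, 7774 and 7478, Hspa1a stood at 337 (303 to 372), 463 (424 to 505) and 536 CPM (493 to 581). Hspb1 stood at 2.67, 17.0 and 25.8 CPM in those cells, from 3, 19 and 28 UMIs, and Hsph1 at 30.3, 41.3 and 55.3 CPM. The order was thus the same at near-equal depth in 3-day cells. Among the constitutive genes Hsp90ab1 also stood higher in each next tercile there, at 2465, 2754 and 2945 CPM. So did Hspa8, at 2300, 2446.5 and 2788 CPM, and Hspe1, at 654, 677 and 747 CPM. The lowest and highest intervals of Hspe1 overlapped. Hspd1 alone ran the other way, at 363, 310 and 289 CPM. In the middle depth tercile of the other libraries Hspa1a stood at 29.6 (22.8 to 37.8), 61.2 and 109 CPM (95.5 to 125) in uninduced, at 5.04 (2.31 to 9.58), 18.1 and 22.8 CPM (16.2 to 31.1) in 6-day, and at 5.26 (2.80 to 9.003), 8.44 and 11.9 CPM (7.91 to 17.2) in control cells. The lowest and highest intervals overlapped in control cells, which does not settle whether the levels differ, and this was not tested. Dnajb1 at middle depth stood at 131 and 366 CPM in the lowest and highest terciles of uninduced cells. These were 220 and 565 in 3-day, 79.0 and 199 in 6-day, and 97.2 and 176 CPM in control cells. Hspa8 stood at 1890 and 2215, 2300 and 2788, 1700 and 2006, and 1704 and 2069 CPM in the same order. For both genes the lowest and highest intervals were separate in each library. In 3-day cells parted by total UMIs alone, Hspa1a stood at 581, 444 and 400 CPM from the shallowest to the deepest tercile. By the share of G2/M genes, which are read in dividing cells, it stood at 551, 433 and 406 CPM from the lowest to the highest tercile, whose median UMIs per cell were 5520, 7626 and 11135.

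**Figure D4:**
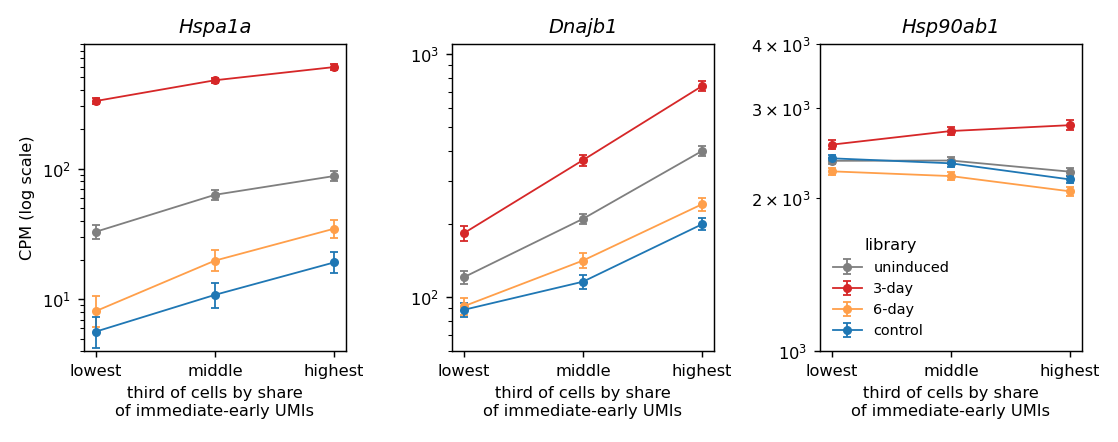
Level in CPM (log axes) of Hspa1a, Dnajb1 and Hsp90ab1 in terciles of cells by their share of immediate-early UMIs, in the 4 libraries; bars are 95% Poisson intervals. Hspa1a and Dnajb1 stand higher in each next tercile in each library, while Hsp90ab1 at 3 days is between 2540 and 2773 CPM.

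Between libraries the immediate-early genes were also compared. In 3-day against uninduced cells 20 of the 22 passed the minimum, 0 were at least 1.5-fold higher and 3 lower (Ier3, Nr4a1 and Socs3), where 0.847% of all genes were lower, and the list summed to 7485 CPM at 3 days, against 7996 CPM in uninduced cells. In 6-day against 3-day cells 9 were lower, among them Fos, Jun and Klf2, and 3 higher, where 0.674% of all genes were lower and 1.4% higher. In 3-day against control cells 10 were higher and 1 lower (Socs3), where 0.91% of all genes were higher and 1.39% lower. The list sums were 7485 and 4939 CPM. In uninduced against control cells 10 were higher and none lower, where 0.691% of all genes were higher. Hspa1a and Dnajb1 were also higher in that comparison. The part of these genes in the heat shock differences was not tested.

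Hspa1a UMIs were found in cells with and without Rbpj UMIs. In thinned 3-day cells it stood at 420 CPM (393 to 448) in the 465 cells with a Rbpj UMI and at 497 CPM (471 to 523) in the 623 without. In 6-day cells the values were 19.9 (15.5 to 25.1) and 13.5 CPM (10.4 to 17.2), and those intervals overlapped. A cell without a Rbpj UMI may still carry Rbpj transcripts at this depth. Cells in which markers of other blood and marrow cell types made up at least 1% of UMIs numbered 34 uninduced, 20 3-day, 38 6-day and 9 control cells. Hspa1a was lower in such 3-day cells, at 183 CPM (121 to 264), against 452 (439 to 465) in the other 1272.

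RNA outside cells was read from barcodes with 10 to 100 UMIs that were not in the cell sets. Hspa1a stood there at 75.3 (52.4 to 105), 637 (552 to 731), 68.8 (54.3 to 86.0) and 20.3 CPM (14.2 to 28.3) in the uninduced, 3-day, 6-day and control libraries, from 35, 201, 77 and 35 UMIs. Over its level in cells this was 1.33 (0.924 to 1.86), 1.42 (1.23 to 1.64), 3.64 (2.80 to 4.68) and 1.87 times (1.28 to 2.68). The median ratio over all genes with at least 10 CPM in cells was 1.07, 1.09, 1.13 and 1.11, and the share of those genes above Hspa1a was 21.4%, 20.5%, 0.0288% (2 genes) and 0.783%. In the 6-day and control libraries Hspa1a lay above the 95th percentile of those genes (1.66 and 1.59), and in the uninduced and 3-day libraries below it (1.71 and 1.86).

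The high 6-day value rests in part on barcodes of 3-day cells. They were 677 of the 1119 6-day barcodes with 51 to 100 UMIs (60.5%) and 975 of the 65767 with 10 to 100 (1.48%), and they held 29 of the 77 Hspa1a UMIs. Over all 1287 such barcodes Hspa1a stood at 418 CPM (301 to 565) in the 6-day library, near its 3-day level of 448 CPM. Without barcodes of any other library's cells, the 6-day level outside cells was 45.8 CPM (33.7 to 60.7), 2.42 times (1.75 to 3.28) that in cells, and the levels of the uninduced, 3-day and control libraries were 76.1, 640 and 20.5 CPM.

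Outside cells the 6 inducible genes also stood higher in the 3-day than in the uninduced library. The folds were 8.45 (5.88 to 12.5) for Hspa1a, 17.7 (5.58 to 89.7) for Hspa1b (36 against 3 UMIs), 10.3 (2.37 to 93.4) for Hspb1 (14 against 2 UMIs), 3.24 (1.04 to 11.9) for Hsph1, 1.77 (1.40 to 2.23) for Dnajb1 and 1.74 (1.501 to 2.02) for Hsp90aa1. The constitutive folds were 1.05 (0.954 to 1.16) for Hsp90ab1, 1.22 (1.11 to 1.34) for Hspa8, 1.34 (1.03 to 1.73) for Hspd1 and 1.34 (1.14 to 1.56) for Hspe1. These barcodes belong to the same 2 libraries and are no replicate of the cells. Of the constitutive genes, Hspe1 alone was above its level in cells in all 4 libraries with intervals clear of 1, at 1.34 to 1.52 times.

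How much RNA from outside a cell reaches its barcode can be read from genes of other cell types. In the 1272 3-day cells with under 1% of such markers, S100a8, a neutrophil gene, stood at 34.5 CPM, 1.61% (1.42 to 1.84) of its level of 2138 CPM outside cells. Hspa1a stood in the same cells at 71.0% (61.6 to 82.2) of its level outside cells. A UMI of S100a8 was found in 22.5% (20.2 to 24.9) of these cells, and one of Hspa1a in 69.8% (67.2 to 72.3), at a median of 7678 UMIs per cell. In the 2735 such uninduced cells (median 6774 UMIs) S100a8 stood at 1.27% and Hspa1a at 75.7% (54.1 to 109) of the levels outside cells. In the 2091 such 6-day cells these were 1.36% and 28.0% (21.8 to 36.3), and in the 2684 such control cells 1.71% and 53.5% (37.5 to 78.5). S100a8 is 1 of the markers by which the cells were chosen, which caps its value.

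**Figure D5:**
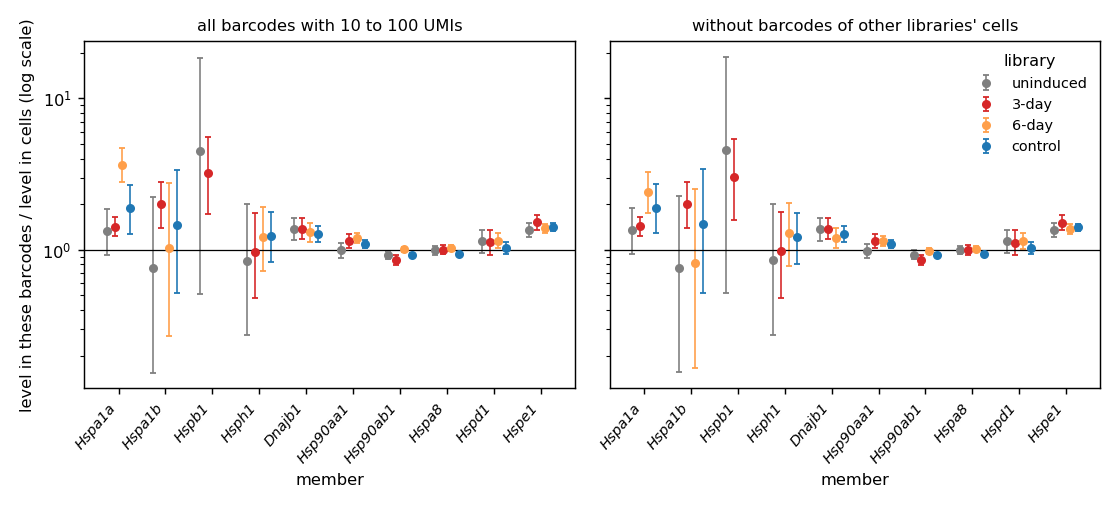
Level in barcodes with 10 to 100 UMIs over the level in cells (log axis) for each gene with a UMI in both, by library, with all such barcodes (left) and without barcodes of other libraries' cells (right); bars are 95% intervals. The 6-day Hspa1a point is at 3.64 on the left and 2.42 on the right.

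Other genes of the heat shock response were followed through 9 related lists. The 9 related lists (heat shock factors, other HSP70s, cochaperones of HSP70 and HSP90, other small heat shock proteins, the chaperonin TRiC, chaperones of the endoplasmic reticulum, ubiquitin and proteasome, and oxidative stress) held 98 genes, of which 69 passed the minimum in 3-day against uninduced cells. None of the 69 was at least 1.5-fold higher or lower, and their median log2 ratio was 0.13, with 50 of 69 above 0, beside -0.01 over all genes. Hsf1, the heat shock factor itself, stood at 21.6 CPM, against 23.5 CPM in uninduced cells, 0.920-fold (0.783 to 1.08). Among the nearest to the threshold were Dnajb4, an HSP40, at 50.7 against 33.5 CPM (1.51-fold, 1.35 to 1.70, and 0.58 on the log2 scale of CPM + 1), and Dnaja1, another HSP40, at 301 against 226 CPM (1.33-fold, 1.28 to 1.40).

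Some related genes lay under the 10 CPM minimum, where folds rest on few UMIs. Slc7a11, a cystine transporter from the oxidative stress list, stood at 4.23 CPM at 3 days, against 2.10 CPM in uninduced cells (2.01-fold, 1.30 to 3.12). Bag3, a cochaperone of HSP70, stood at 3.66 CPM at 3 days, against 1.91 CPM in uninduced cells (1.92-fold, 1.20 to 3.06), and Cryab, a small heat shock protein, at 1.78 against 1.43 CPM (1.25-fold, 0.663 to 2.29). Above the minimum, Hspa5, the HSP70 of the endoplasmic reticulum, stood at 328 against 253 CPM (1.29-fold, 1.24 to 1.35). In 6-day against 3-day cells 3 of 70 related genes were lower, among them Hspa5 (0.556-fold) and Dnajb4 (0.585-fold), and none was higher. Of all genes 0.674% were lower there. In 6-day against uninduced, uninduced against control and 6-day against control cells none of the related genes past the minimum was called. In 3-day against control cells 4 were higher (among them Hspa5, Dnajb4 and Mt1) and 1 lower (Dnajb12). Of all genes 0.91% were higher and 1.39% lower in that comparison.

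The genes were next ranked by how far the 3-day level lay above each of the other libraries. The heat shock genes had been chosen for this pattern, and Hspb1 and Hspa1b reach 10 CPM at 3 days alone, so their ranks are a description that the choice fixed. Of 6855 genes with at least 10 CPM at 3 days, 17 were at least 1.5-fold above each of the 3 others, and 6 of these were the inducible genes, ranked 1 to 4 (Hspa1a, Hspb1, Hspa1b and Hsph1), 9 (Dnajb1) and 16 (Hsp90aa1). The constitutive genes ranked 47 (Hspd1), 102 (Hspa8), 137 (Hspe1) and 259 (Hsp90ab1). The 10 other genes with the most similar pattern were Ccl5, Elane, Chil3, Cxcl10, Fam46a, Ifit1, Ltf, Gm28707, Hp and BC049715. Ccl5, a chemokine, stood at 31.3 CPM in uninduced, 71.3 in 3-day, 22.4 in 6-day and 8.76 in control cells, and Elane, a granule protease, at 10.5, 47.7, 23.3 and 1.79 CPM. Elane, Chil3, Ltf and Hp are genes of the neutrophil line, whose marker sums are given above. Ccl5 is 1 of the T and NK cell markers, which summed to 205, 263, 175 and 183 CPM in uninduced, 3-day, 6-day and control cells. Nkg7 made up 170, 187, 146 and 170 CPM of these sums, and Ccl5 itself most of the rest in uninduced and 3-day cells. Cd3e was at 0 in each library. The sums are thus no separate reading of T or NK cells.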

How the data were processed

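RNA of LMPPs was counted in 4 droplet libraries, 1 per group. The authors deposited raw UMI counts per gene for 737280 barcodes of each library, per the file headers, and tables of log2 values, deposited by the authors, for the cells and genes they kept, which served here to pick the cells. Seurat and the build mm10 are named in the submitters' processing notes with no role; aligner, counter, annotation and cell filter are not given in the sources used here. Columns of those log2 tables, scaled back, gave whole counts within 1e-06 in 100% of cells checked.

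UMIs were summed over the cells of each library, divided by the total and given as CPM with exact Poisson 95% intervals; folds carry conditional exact intervals. A gene was counted in a comparison at 10 CPM or more in either library and 1.5-fold or more on CPM + 1. No test was run, since each group has 1 library. For shares, cells with at least 4700 UMIs were thinned to that number, which left out 676 uninduced, 204 3-day, 374 6-day and 351 control cells. Doublets were not removed here, cells were not clustered, and a cell counted as marker-rich at 1% of UMIs or more. Alternatives were TMM and median of ratios scaling (edgeR 4.0.16, R 4.3.3), totals without heat shock genes, other pseudocounts, filters, folds, depths and barcode ranges, and leaving out cells; those without barcodes shared between libraries were added after seeing the data. The 1.5-fold rule and the fold intervals were tested on simulated Poisson counts, and the other steps were not. Work was done in Python 3.11.15 with numpy 2.4.6, scipy 1.17.1, pandas 2.3.3 and matplotlib 3.10.9. Positions come from GENCODE on GRCm38 and promoter windows from RefSeq.

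The members and lists were chosen with earlier results of these data known. Named genes are the 10 members, the related genes nearest to or past the 1.5-fold limit, the 10 other genes with the largest smallest 3-day log2 ratio and the 10 with the highest r; Hsf1, Bag3, Cryab, Slc7a11 and the immediate-early examples were chosen after their values were seen. Genes withheld from this text are not reported here and remain in the counts and sums of their lists.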

Additional observations from a re-analysis of the deposited data

Results flagged for a closer look

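Against the same uninduced library, Hspa1a was higher in 3-day cells (log2 ratio 2.96) and lower in 6-day cells (log2 ratio -1.53), so its ratio changed direction between the times. The 6-day over 3-day log2 ratio was -4.50 (-4.4954), from 18.9 CPM in 6-day and 448 CPM in 3-day cells. The difference was not tested, since each time has 1 library and both ratios share the uninduced one.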

How the results depend on the processing

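Of 480 values for single genes under the alternatives, 423 moved by less than counting error and 57 moved by more. Among genes counted as apart 0 changed direction, and for the others a change of direction was not checked. Of 112 values that answer a comparison, 81 stayed and 31 moved. Without the filter on low values 3 genes were counted in 6-day against uninduced cells and 4 in uninduced against control cells. At 2-fold 1 was counted in uninduced against control cells and 0 in 6-day against control cells, where thinned cells also gave 0. The share of cells with a Hspa1a UMI was 9.14%, 19.1% and 15.9% in uninduced cells at 3000 UMIs, at 7000 UMIs and without thinning, 52.9%, 70.0% and 69.2% in 3-day, 3.69%, 6.73% and 6.39% in 6-day, and 2.28%, 4.63% and 4.46% in control cells. For Hspa1a outside over inside cells, barcodes of 51 to 100 UMIs gave 2.63 at 3 days and 17.7 at 6 days, those of 1 to 9 gave 1.65, 1.98 and 2.88 at 3 days, at 6 days and in control, those of 10 to 50 gave 2.59 at 6 days, and leaving out other libraries' cells gave 2.42 at 6 days. Without Hsp90aa1 the inducible over constitutive ratio was 0.0564, 0.151, 0.0369 and 0.0300 in uninduced, 3-day, 6-day and control cells, and without Hspa1a 0.183, 0.255 and 0.157 in the first 3. The cause of these moves was not tested, beyond fewer UMIs or genes where the alternative removes them. No paired analysis was possible because the groups hold a single library apiece. Hspb1 rests on 1 to 20 UMIs outside the 3-day library, so its folds are known only within wide counting intervals.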
